A study of Mus musculus with 4 samples.

Results

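Collagen and laminin chains, the main structural proteins of the extracellular matrix, were examined in posterior tissue of mouse embryos. The genes were taken as every probe on the array named for a collagen alpha chain or for a laminin alpha, beta or gamma chain, with Col26a1 added under its older symbol Emid2. This gave 51 genes on 101 probes, of 27574 gene names on the array, made up of 41 collagen and 10 laminin genes. Of these, 32 genes on 48 probes were bright enough to be tested, and 19 genes were not.

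The tissue was the part of the embryo behind the last somite boundary at a stage of 5 to 6 somites, pooled from 10 embryos per genotype. One genotype was Cdx2+/-Cdx4-/-, which lacks Cdx4 and carries a single working copy of Cdx2, the caudal-type homeobox factors of the posterior body axis. The other was wildtype, and the labels give no allele or treatment that both groups share and no strain. RNA of both was hybridised together to each of 4 arrays with Cy3 and Cy5 dyes. The labels name them replicate 1 (array 1), its dye swap (array 2), replicate 2 (array 3) and its dye swap (array 4). Nothing in the labels says whether the replicates came from separate pools, so the spread behind a p-value here may be technical alone. That spread lies between the 2 labelled replicates, with 1 residual degree of freedom for a gene. Limma's moderated fit adds 25.7 prior degrees of freedom drawn from all genes, so an SE is mostly shared between genes.

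Collagens are trimers of alpha chains. Fibrillar collagens (types I, II, III, V, XI, XXIV and XXVII) assemble into the fibrils of connective tissue and cartilage, whereas type IV forms the network of basement membranes, where types XV and XVIII are also found. The remaining collagens include those that sit on fibril surfaces, such as type IX, and those that span the cell membrane, such as types XIII and XXIII. Laminins are trimers of 1 alpha, 1 beta and 1 gamma chain, and they form the polymer on which embryonic epithelia and early mesoderm rest.

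The labels do not settle which way the arrays run. Over 41108 probes, the log ratio of Cy5 over Cy3 correlated at r = -0.36 between arrays 1 and 3 and at r = -0.38 between arrays 2 and 4, although each of these pairs carries the same labelled dyes. The labelled dye swaps correlated positively instead, at r = 0.75 for arrays 1 and 2 and at r = 0.79 for arrays 3 and 4. The Cdx4 probe, which checks the labels, read -2.59 and -2.11 in log2 of Cy5 over Cy3 on arrays 1 and 2, and 2.82 and 2.42 on arrays 3 and 4. The labels of arrays 1 and 4 go with a lower Cdx4 level in the mutant, and those of arrays 2 and 3 with a higher one. All 4 arrays were therefore turned so that Cdx4 was lower in the channel called mutant. "Mutant" and "wildtype" below mean the channels set in this way, and every sign that follows turns around under the labels of arrays 2 and 3. After turning, the mutant RNA was read in Cy5 on arrays 1 and 2 and in Cy3 on arrays 3 and 4, so a dye effect is not removed within a labelled replicate but widens the spread between replicates. Cdx4 then fell by 2.48 on the log2 scale (SE 0.10, n = 2), a direction fixed by the turning. Cdx2, whose probe did not enter the turning, fell by 0.54 (SE 0.10, n = 2), with an adjusted p of 6.4e-04 in limma.

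Promoter windows show what sequence lies at the start of members whose results are described below. RefSeq windows on GRCm38.p6, reaching from 250 bases before to 50 bases after a gene's start, were matched by symbol for 36 of the 51 genes, 22 of them tested, in 40 windows. Each window is written 5′ to 3′ on the strand of its gene. Short motifs of 4 kinds were searched on both strands, namely TTTATG, a core that CDX factors bind, ACAAAG, a core that SOX factors bind, the CCAAT box CCAAT and the GC box GGGCGG. None of these motifs overlaps another in the windows shown, and capitals mark every match. The windows of Col9a1 and Col13a1 are shown because both genes were called higher, and those of Col4a1 and Col4a2 because these neighbouring genes start close together on opposite strands. No window was matched for the other called genes, Col26a1, Col2a1, Col1a1 and Lamc1.
Col9a1 first start, chr1:24177360-24177659, plus strand: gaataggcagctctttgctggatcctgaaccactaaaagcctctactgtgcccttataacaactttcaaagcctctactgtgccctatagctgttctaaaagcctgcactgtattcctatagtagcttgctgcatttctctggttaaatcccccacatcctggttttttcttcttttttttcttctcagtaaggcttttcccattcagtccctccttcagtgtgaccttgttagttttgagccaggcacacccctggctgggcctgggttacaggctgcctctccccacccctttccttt
Col9a1 second start, chr1:24194953-24195252, plus strand: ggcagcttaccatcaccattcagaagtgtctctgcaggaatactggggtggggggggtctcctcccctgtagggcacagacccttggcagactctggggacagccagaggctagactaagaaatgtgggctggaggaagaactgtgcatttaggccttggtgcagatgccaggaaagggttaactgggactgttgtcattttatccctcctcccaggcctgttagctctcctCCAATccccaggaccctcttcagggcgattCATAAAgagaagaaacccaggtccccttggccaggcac
Col13a1, chr10:61979059-61979358, minus strand: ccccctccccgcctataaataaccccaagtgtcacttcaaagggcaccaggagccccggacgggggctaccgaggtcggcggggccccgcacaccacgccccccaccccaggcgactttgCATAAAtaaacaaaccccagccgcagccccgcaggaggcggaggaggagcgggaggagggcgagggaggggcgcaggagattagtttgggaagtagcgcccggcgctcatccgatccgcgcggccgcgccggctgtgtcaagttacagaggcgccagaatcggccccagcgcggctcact
Col4a1, chr8:11312777-11313076, minus strand: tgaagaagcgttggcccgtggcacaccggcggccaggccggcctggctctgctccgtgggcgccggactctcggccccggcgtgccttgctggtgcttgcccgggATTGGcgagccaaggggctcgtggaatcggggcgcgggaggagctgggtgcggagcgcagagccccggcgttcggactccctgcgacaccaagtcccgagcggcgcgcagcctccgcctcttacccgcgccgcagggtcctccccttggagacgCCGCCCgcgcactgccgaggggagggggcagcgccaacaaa
Col4a2, chr8:11312555-11312854, plus strand: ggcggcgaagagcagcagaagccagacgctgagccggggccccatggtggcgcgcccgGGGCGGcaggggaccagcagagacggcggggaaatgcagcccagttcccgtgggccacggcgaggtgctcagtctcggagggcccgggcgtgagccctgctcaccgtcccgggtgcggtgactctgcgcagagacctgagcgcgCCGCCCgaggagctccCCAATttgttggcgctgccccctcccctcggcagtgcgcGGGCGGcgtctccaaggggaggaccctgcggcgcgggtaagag

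TTTATG or its reverse complement lay in 4 of the 40 windows, those of Col13a1, Col4a6, Col8a1 and the second start of Col9a1. Over all 32851 RefSeq windows of this length, 11.9% held it. ACAAAG lay in 5 of the 40 member windows and in 18.7% of all windows. CCAAT lay in 12 member windows and in 37.4% of all windows, and GGGCGG in 22 member windows and in 35.7% of all windows. In Col9a1 the match to TTTATG is at base 263 of the window of the second start, and the window of the first start holds none of the 4 motifs. The starts of Col4a1 (chr8:11312826, minus strand) and Col4a2 (chr8:11312805, plus strand) lie 21 bases apart, so the genes overlap at their starts. Their windows share 78 bases. A match is a run of letters in the window and was not tested as a binding site.

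Among the tested genes, 5 collagens were higher in the mutant, Col26a1, Col2a1, Col9a1, Col1a1 and Col13a1, and 1 laminin chain, Lamc1, was lower. The other 26 genes did not pass the threshold of an adjusted p of 0.05. Of all 14843 genes tested on the array, 3.28% were called higher and 4.44% lower by the same fit. The median log2 ratio was 0.17 for fibrillar collagens, 0.05 for basement membrane collagens, 0.15 for other collagens and -0.15 for laminin chains, against 0.015 for all genes. Each ratio is on the log2 scale, as the mean of the 2 labelled replicates, and its SE comes from limma's moderated fit with n = 2. In bulk tissue, fewer cells of a type and less RNA per cell cannot be told apart.

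**Figure D1:**
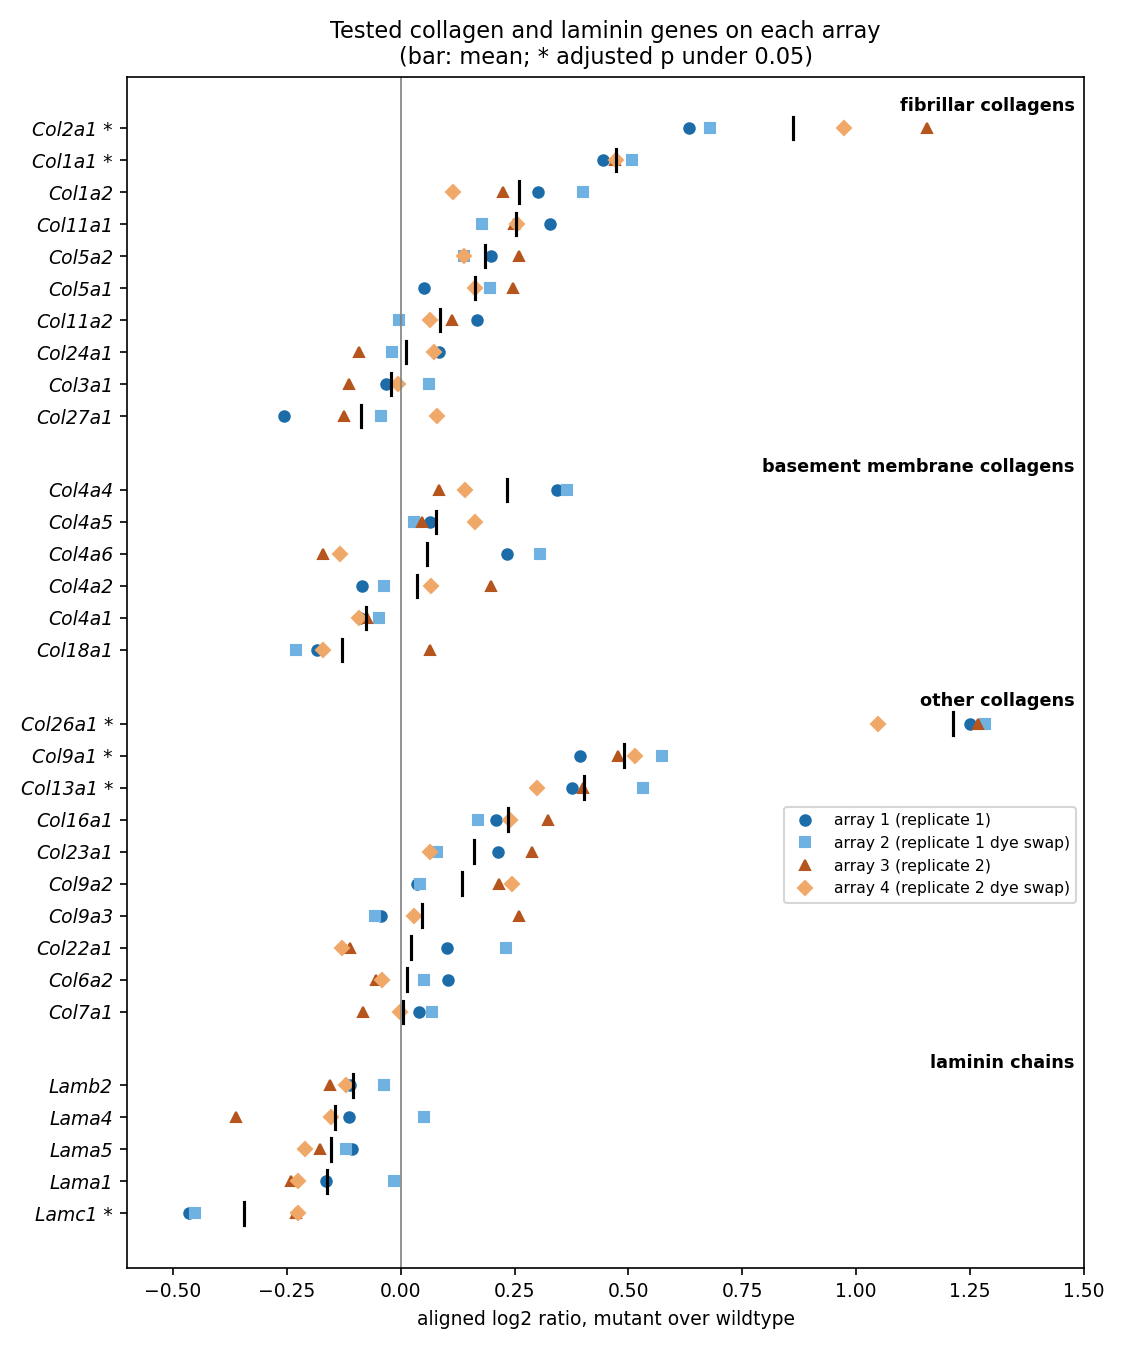
Aligned log2 ratio of mutant over wildtype for 31 of the 32 tested genes (x axis), with 1 marker per array, a black bar at the mean and an asterisk for an adjusted p under 0.05. Markers of Col26a1 and Col2a1 lie farthest to the right, and those of Lamc1 lie below 0 on all 4 arrays.

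Counted by array, 15 of the 32 genes were above 0 on all 4 arrays, 5 were below 0 on all 4 and 12 changed sign between arrays. The same was true of 24.9% of all tested genes above 0 and of 19.6% below 0. Above 0 on all arrays were 6 of 10 fibrillar, 2 of 6 basement membrane and 6 of 10 other collagens. Below 0 on all arrays were 4 of 6 laminin chains and 1 basement membrane collagen, Col4a1.

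Col2a1, the chain of type II collagen in cartilage and the notochord sheath, had the largest change among fibrillar collagens. Its log2 ratio was 0.63, 0.68, 1.16 and 0.97 on arrays 1 to 4. It was above 0 on every array and higher on arrays 3 and 4 than on arrays 1 and 2. The mean was 0.86 (SE 0.11, n = 2), a 1.82-fold higher level in the mutant, with an adjusted p of 2.84e-06 in limma. In normalised log2 intensity the mutant channel lay between 9.64 and 9.88 and the wildtype channel between 8.72 and 9.24, so the channels did not overlap. The representing probe maps to chr15:97804108-97804167 on mm8, the build of the scanner files. A second Col2a1 probe, printed at 10 spots per array, read 0.77, 0.64, 1.12 and 0.96. It lies at chr15:97804088-97804147 and overlaps the representing probe, so the readings are not independent.

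Col1a1 encodes the major chain of type I collagen of mesenchyme and bone. Its log2 ratio was 0.44, 0.51, 0.47 and 0.47 on the 4 arrays, so the arrays lay close together. The mean was 0.47 (SE 0.10, n = 2), 1.39-fold higher, with an adjusted p of 0.0023 in limma. The mutant channel ran from 11.81 to 11.92 and the wildtype channel from 11.34 to 11.43 in log2 intensity. The probe (chr11:94767851-94767910, mm8) was printed at 10 spots, of which 8 to 10 were kept on an array, and the SD over spots within an array was 0.047 to 0.077. The second Col1a1 probe read lower, from 0.26 to 0.39, and its own adjusted p over all probes was 0.059.

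The partner chain Col1a2 had a log2 ratio of 0.26 (SE 0.10, n = 2, adjusted p = 0.12 in limma), with 0.30, 0.40, 0.23 and 0.12 on the arrays, and did not pass. Col11a1, a chain of type XI collagen that sits inside cartilage fibrils, had 0.25, and Col5a2 and Col5a1, chains of type V collagen that set fibril diameter, had 0.18 and 0.16. These 4 genes were above 0 on every array without passing the threshold. Col24a1, with 0.012, was mixed in sign. Col11a2, the other type XI chain, had 0.09, with 0.17, -0.0030, 0.11 and 0.064 on the arrays, and its second tested probe had the opposite sign, -0.028. Col3a1, the type III chain of soft connective tissue, had the value -0.022, and Col27a1 had the lowest value of the class, -0.09, with -0.26, -0.043, -0.12 and 0.08 on the arrays. Col5a3 was not bright enough to be tested.

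Col26a1, whose product is a secreted collagen first described in testis and ovary, had the largest ratio of all members. Its log2 ratio was 1.25, 1.28, 1.27 and 1.05 on arrays 1 to 4, the lowest being on array 4. The mean was 1.21 (SE 0.10, n = 2), 2.32-fold higher in the mutant, with an adjusted p of 2.91e-09 in limma. The mutant channel ran from 11.32 to 11.55 and the wildtype channel from 10.18 to 10.30 in log2 intensity, without overlap. The probe lies at chr5:137026407-137026466 on mm8.

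Col9a1, a type IX chain on the surface of cartilage fibrils, had log2 ratios of 0.39, 0.57, 0.48 and 0.51. Its mean was 0.49 (SE 0.10, n = 2), 1.40-fold higher, with an adjusted p of 0.0016 in limma. Mutant log2 intensity was 9.40 to 9.61 and wildtype 9.003 to 9.050, without overlap. The other type IX chains, Col9a2 with 0.13 and Col9a3 with 0.047, did not pass, and Col9a2 was higher on arrays 3 and 4 (0.22 and 0.25) than on arrays 1 and 2 (0.037 and 0.042).

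Col13a1 spans the cell membrane and is found at cell-matrix junctions. Its representing probe had log2 ratios of 0.38, 0.53, 0.40 and 0.30, with a mean of 0.40 (SE 0.10, n = 2), 1.32-fold higher, and an adjusted p of 0.0095 in limma. A second tested probe of the gene read -0.075, -0.012, 0.24 and 0.13, so the 2 probes disagreed in size, and the mean over both probes was 0.24 with an adjusted p of 0.13. The call also failed when array 1, 2 or 3 was left out, with an adjusted p of 0.065, 0.069 and 0.056.

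Of the other collagens that did not pass, Col16a1, a fibril-associated chain, had a log2 ratio of 0.24 and Col23a1, a membrane-spanning chain, 0.16, both above 0 on every array. Col22a1, Col6a2 and Col7a1 had values of 0.023, 0.015 and 0.0059. For Col22a1, a fibril-associated chain at tissue junctions, the arrays read 0.10, 0.23, -0.11 and -0.13, and a second probe had a mean of -4.2e-04. These 3 genes were positive on arrays 1 and 2 and negative on arrays 3 and 4. The class held 12 genes that could not be tested, among them Col6a1 and Col6a3 of type VI, and the short chains Col8a1, Col8a2 and Col10a1.

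**Figure D2:**
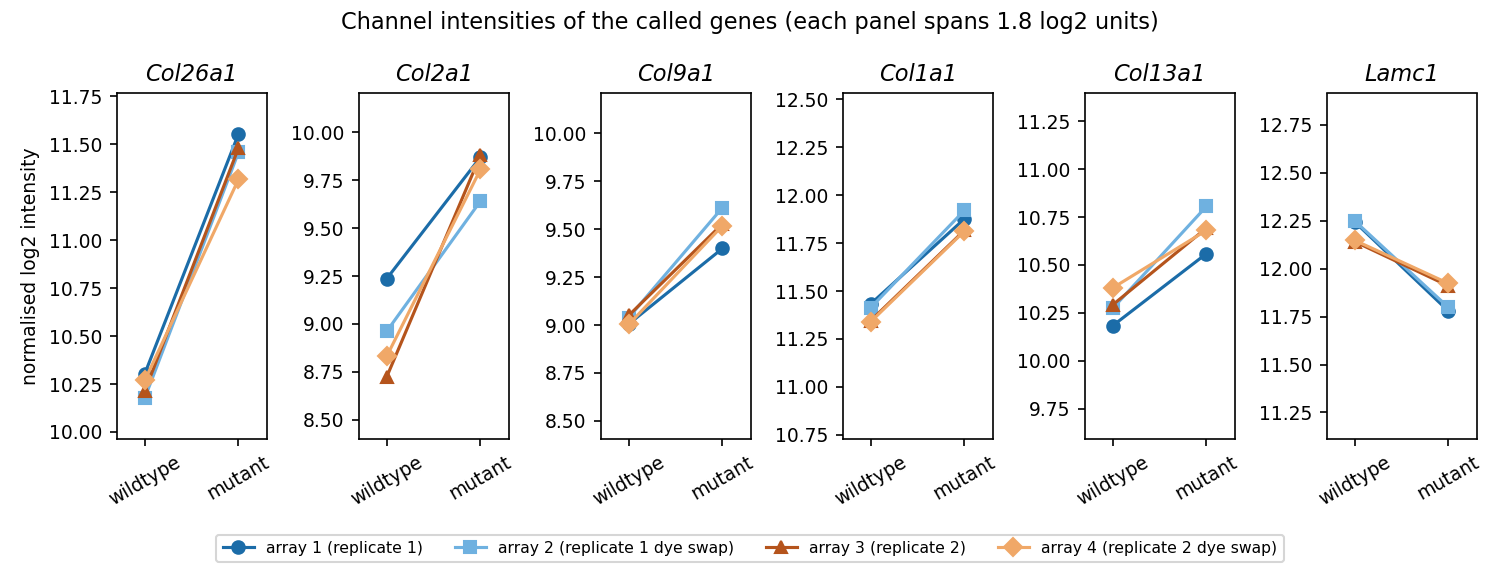
Normalised log2 intensity of the wildtype and mutant channels (y axis, each panel spanning 1.8 log2 units) for the 6 called genes, with 1 line per array. Lines rise in all panels of the collagens and fall in that of Lamc1.

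The type IV chains gave no call. Col4a1 and Col4a2, which form the common network of all basement membranes, had log2 ratios of -0.08 (SE 0.10) and 0.035 (SE 0.10), each with n = 2. Col4a1 read -0.089, -0.047, -0.073 and -0.091, below 0 on every array, and Col4a2 read -0.086, -0.036, 0.20 and 0.066, with both signs. A second tested probe of Col4a1 read -0.27, -0.066, 0.013 and -0.040, so it was above 0 on array 3. The probes that stand for Col4a1 and Col4a2 lie 249.831 kb apart on chromosome 8. The values of this neighbouring pair thus differed by about as much as the SE of either.

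Col4a4, a chain of the network of kidney and other specialised basement membranes, had the largest ratio of the class, 0.23 (SE 0.10, n = 2, adjusted p = 0.19 in limma), with 0.34, 0.37, 0.084 and 0.14 on the arrays. It was above 0 on every array and larger on arrays 1 and 2. The X-linked pair Col4a5 and Col4a6, with probes 523.005 kb apart, had 0.08 and 0.06. Col4a5 read 0.065, 0.030, 0.048 and 0.16. Col4a6 read 0.23 and 0.30 on arrays 1 and 2 and -0.17 and -0.13 on arrays 3 and 4, the widest split by dye orientation of any tested member. Its other tested probes read between -0.014 and 0.048, and between 0.017 and 0.26, so the 3 probes of this gene did not share a pattern.

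Col18a1, which carries the endostatin fragment, had the lowest ratio of the class, -0.13 (SE 0.10, n = 2, adjusted p = 0.55 in limma). Its values were -0.18, -0.23, 0.064 and -0.17, with array 3 apart from the rest. Col4a3 and Col15a1 were not tested, as none of their probes was well above background on any array.

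Lamc1, the gamma chain of most laminin trimers, was the only member called lower. Its log2 ratio was -0.47, -0.45, -0.23 and -0.22 on arrays 1 to 4, below 0 on each and farther from 0 on arrays 1 and 2. It fell by 0.34 on the log2 scale (SE 0.10, n = 2), 1.27-fold, with an adjusted p of 0.032 in limma. Mutant log2 intensity was 11.78 to 11.92 and wildtype 12.14 to 12.25. The call ended when any 1 array was left out, with an adjusted p between 0.069 and 0.16. The probe lies at chr1:154981243-154981301 on mm8.

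No other laminin chain passed. The alpha chains Lama1, the chain of the earliest embryonic basement membranes, Lama5, of later epithelial ones, and Lama4, of vessel basement membranes, had log2 ratios of -0.16, -0.15 and -0.14. Lama1 read -0.16, -0.015, -0.24 and -0.23, and Lama5 read -0.11, -0.12, -0.18 and -0.21, both below 0 on every array. Lama4 read -0.11, 0.051, -0.36 and -0.15. Its 3 tested probes had means of -0.14, -0.05 and 0.0049, so they differed in sign. Lamb2, a beta chain, had -0.11, with -0.11, -0.037, -0.16 and -0.12 on the arrays. Lamb1, listed on the array under Lamb1-1 and therefore not counted among the 51, had -0.12 (SE 0.10, n = 2) and was below 0 on every array.

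Lama2, Lama3, Lamb3 and Lamc3 were not tested. Of the fibrillar chains, the neighbouring pair Col3a1 and Col5a2, with probes 28.032 kb apart on chromosome 1, had -0.022 and 0.18.

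**Figure D3:**
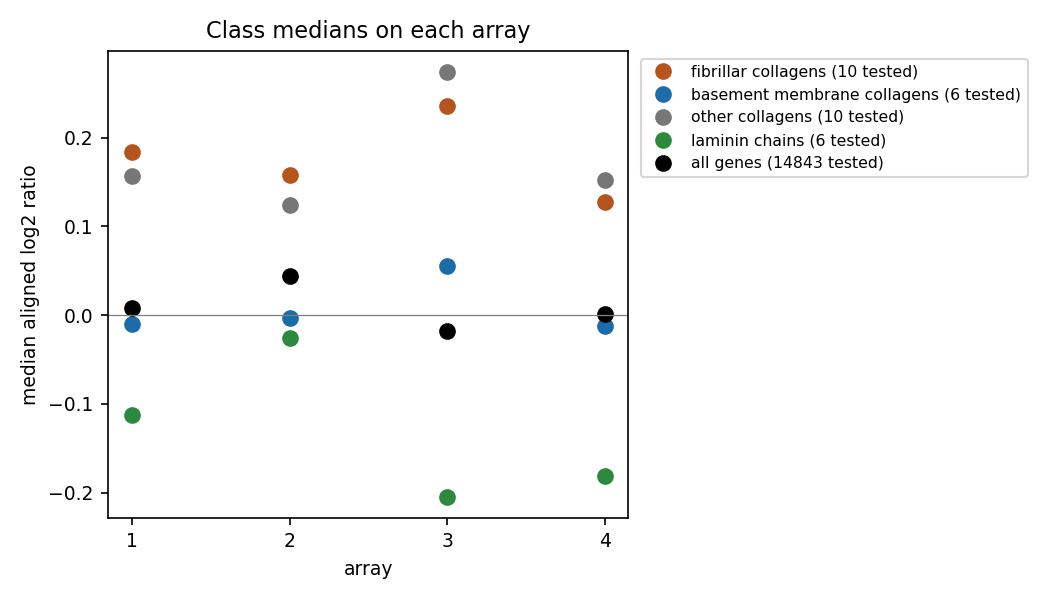
Median aligned log2 ratio of each class (y axis) on each array (x axis), with the median of all 14843 tested genes in black. Fibrillar and other collagens lie above the remaining sets on all 4 arrays and laminin chains lie lowest.

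By array, the fibrillar median was 0.18, 0.16, 0.24 and 0.13, and that of other collagens was 0.16, 0.12, 0.27 and 0.15. Basement membrane collagens had medians of -0.010, -0.0031, 0.056 and -0.012, close to those of all genes, which were 0.0077, 0.044, -0.017 and 0.0011. Laminin chains had -0.11, -0.026, -0.20 and -0.18. The members were chosen with results of these data known, so the medians are descriptions without a test. The order of the classes rested on the normalisation: with median centring in place of loess, which moved the median of all genes from 0.015 to 0.28, the medians were 0.34 for fibrillar, 0.40 for basement membrane and 0.26 for other collagens, and 0.20 for laminin chains. Relative to that median of all genes, laminin chains and other collagens were then below it and basement membrane collagens were the highest class.

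Of the 19 genes not tested, 10 had no probe well above background on any array in either channel. The other 9 had a probe above background on 1 to 3 arrays. Apart from those already given, the former were Col12a1, Col19a1, Col20a1 and Col28a1, and the latter were Col14a1, Col17a1 and Col25a1.

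Because the 4 arrays can be paired in more than 1 way, the count of calls depends on the pairing. With arrays 1 and 3 and arrays 2 and 4 averaged, which balances the dyes within each value, 14 members were called higher and 5 lower, where 22.6% of all genes were called higher and 19.6% lower. The further genes called higher included Col1a2, Col11a1, Col5a1, Col5a2, Col4a4, Col16a1, Col23a1 and Col9a2, and the 4 further genes called lower were Col18a1, Lama1, Lama4 and Lama5. Which pairing is right cannot be told from the labels, and the stricter one is reported above.

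Genes that make, bind or degrade the matrix were described from lists, with calls from the same limma fit. Of 23 tested genes of collagen synthesis and crosslinking, 2 were higher, 2 were lower and 19 did not pass, with a median of 0.07. Adamts2, the protease that removes the amino-terminal propeptide of fibrillar collagens, rose by 1.12 on the log2 scale (SE 0.10, n = 2), with 1.10, 0.84, 1.38 and 1.17 on the arrays and an adjusted p of 2.23e-08 in limma. Loxl1, a lysyl oxidase that crosslinks elastin and collagen, rose by 0.66. P4ha1 and P4ha2, prolyl hydroxylases that stabilise the collagen helix, fell by 0.38 and 0.35 on the log2 scale. With median centring in place of loess P4ha2 had 0.13, where the median of all genes was 0.28. With the scanner's processed signals Loxl1 had 1.52, and its log2 intensity was 8.54 to 8.73 in the mutant and 7.77 to 8.27 in the wildtype.

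Of 13 tested basement membrane partners, 1 was higher and 2 were lower, with a median of 0.032. The nidogens, which link the laminin and type IV networks, fell by 0.44 (Nid1) and 0.45 (Nid2) on the log2 scale, and both were below 0 on every array. The fibulin Fbln2 rose by 0.66. Of 13 tested receptors, the collagen-binding integrin subunit Itga11 rose by 0.38, the proteoglycan Sdc2 fell by 0.37 on the log2 scale, and 11 did not pass, with a median of 0.06. With the scanner's processed signals Itga11 had 1.497. Its log2 intensity was low, 7.86 to 7.99 in the mutant and 7.39 to 7.77 in the wildtype.

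Of 16 tested other matrix proteins, 3 were higher and 3 were lower. Emilin2, an elastic fibre glycoprotein, rose by 0.68, periostin (Postn) by 0.59 and Emid1 by 0.44. Fibronectin (Fn1) fell by 0.57, versican (Vcan) by 0.45 and fibrillin 2 (Fbn2) by 0.37 on the log2 scale. Of 14 tested genes of matrix breakdown, the proteases Mmp11 and Mmp2 rose by 0.46 and 0.35, 0 were called lower, and 12 did not pass. Limma at an unadjusted p of 0.05 also put 0 of these 14 lower. Of all 14843 genes, it put 1385 higher and 1450 lower at that threshold. With median centring 0 genes of the 5 lists were called by limma, with 0 to 3 of a list higher and 0 lower at an unadjusted p of 0.05. Of all 14843 genes, limma in that setting called 6 higher and 2 lower (570 and 9 at an unadjusted p of 0.05).

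**Figure D4:**
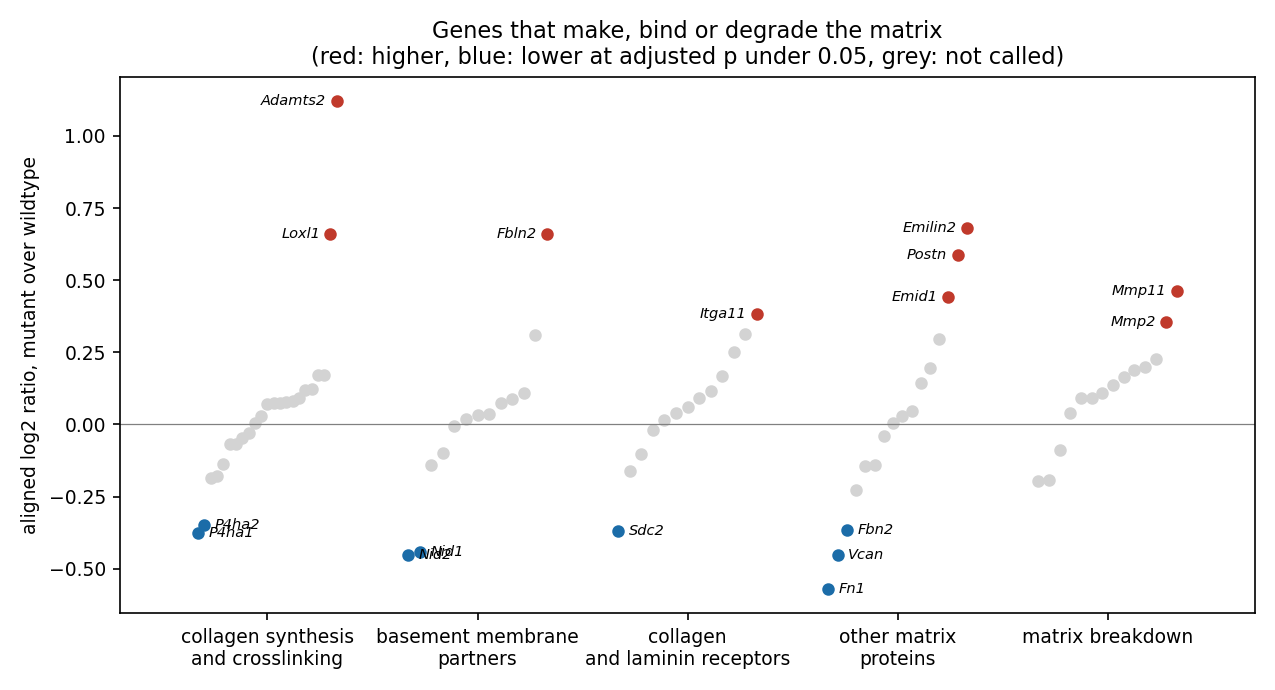
Aligned log2 ratio of mutant over wildtype (y axis) for each tested gene of the 5 lists of matrix genes, coloured by call. Adamts2 is the highest named gene and Fn1 the lowest.

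Markers of cell types were measured in the same arrays. All 9 tail bud and posterior mesoderm genes of the list, which include T, Tbx6, Msgn1, Fgf8 and Wnt3a, were bright enough to be tested. So were all genes of the visceral endoderm, parietal endoderm, surface ectoderm and endothelium lists, so passing this filter does not identify the tissue. Of the 9 tail bud and posterior mesoderm genes, Cdx1 (0.40) and Wnt3a (0.34) were called higher, Cdx2 and Cdx4 lower, and 5 did not pass. The median of the 9 was 0.16, with 7 above 0. Their summed intensity was 29740 to 33745 in the mutant and 30687 to 31573 in the wildtype. This sum holds Cdx4, whose fall was fixed by the turning, and Cdx2, which the genotype also alters. It therefore does not compare the tail bud apart from these genes. All 13 visceral endoderm genes were lower in the mutant, with a median of -0.77, and their summed intensity was 50486 to 51377 in the mutant channel against 103188 to 112946 in the wildtype channel. All 13 stayed below 0 with median centring, but 0 were then called by limma (2 at an unadjusted p of 0.05). Of all 14843 genes, limma in that setting called 2 lower (9 at an unadjusted p of 0.05). Of 8 parietal endoderm genes, whose cells make abundant laminin and type IV collagen, 0 were called in either direction by limma. At an unadjusted p of 0.05 in limma, 1 was above and 0 were below, where 1385 of all 14843 genes were above and 1450 below. The summed intensity of this list was 16592 to 16999 in the mutant and 16166 to 17030 in the wildtype. Lamb1 and Sparc, themselves matrix genes, are part of the list, so its sum does not measure parietal endoderm apart from the matrix. Of 9 endothelial genes, 4 were lower (Kdr, Etv2, Sox7 and Sox18) and 0 were higher, with 0 higher at an unadjusted p of 0.05 in limma, and the sums were 8595 to 8885 and 12464 to 13929. The part of the endoderm and endothelium in the laminin and type IV values was not tested.

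Beside the higher collagens, 1 of 5 tested notochord genes was higher, Car3 with 0.38, while Sox9, a regulator of Col2a1 and Col9a1 in cartilage, had 0.27, Shh 0.16 and T 0.15, and Noto was not well above background. The summed notochord intensity was 5664 to 5968 in the mutant and 5168 to 5294 in the wildtype. Of 6 tested sclerotome and somite genes, 3 were higher, Meox1 with 0.91, Tcf15 with 0.85 and Foxc1 with 0.46, with sums of 4037 to 4356 and 3031 to 3166, while Pax1 and Nkx3-2 were not well above background. The other 3 tested genes of this list did not pass, and 1 of the 6 was below 0, at -0.037. Of 7 surface ectoderm genes, 4 were higher, Krt5, Krt14, Krt18 and Tfap2c, with sums of 136611 to 146692 and 108798 to 129429. Cdh1, of the same list, had -0.30 and was below 0 on all 4 arrays, with an adjusted p of 0.066 in limma. The part of these tissues and of the tail bud in the collagen values was not tested.

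Across the 18 other settings tried on the turned arrays, Col26a1 was called in 17, Col2a1, Col9a1 and Col1a1 each in 15, Col13a1 in 9 and Lamc1 in 7. Leaving out any 1 array kept the calls of Col26a1 (adjusted p up to 0.0023), Col2a1 (up to 0.013), Col9a1 (up to 0.042) and Col1a1 (up to 0.040) in limma. Without a filter on dim probes, the calls of Col2a1, Col9a1 and Col1a1 ended, at adjusted p values of 0.10, 0.090 and 0.094. With median centring, Col2a1, Col1a1, Col13a1 and Col9a1 had 1.11, 0.91, 0.76 and 0.74 and were not called, where the median of all genes was 0.28. Taking the arrays as labelled gave ratios near 0, such as -0.057 for Col2a1 and -0.063 for Col26a1.

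**Figure D5:**
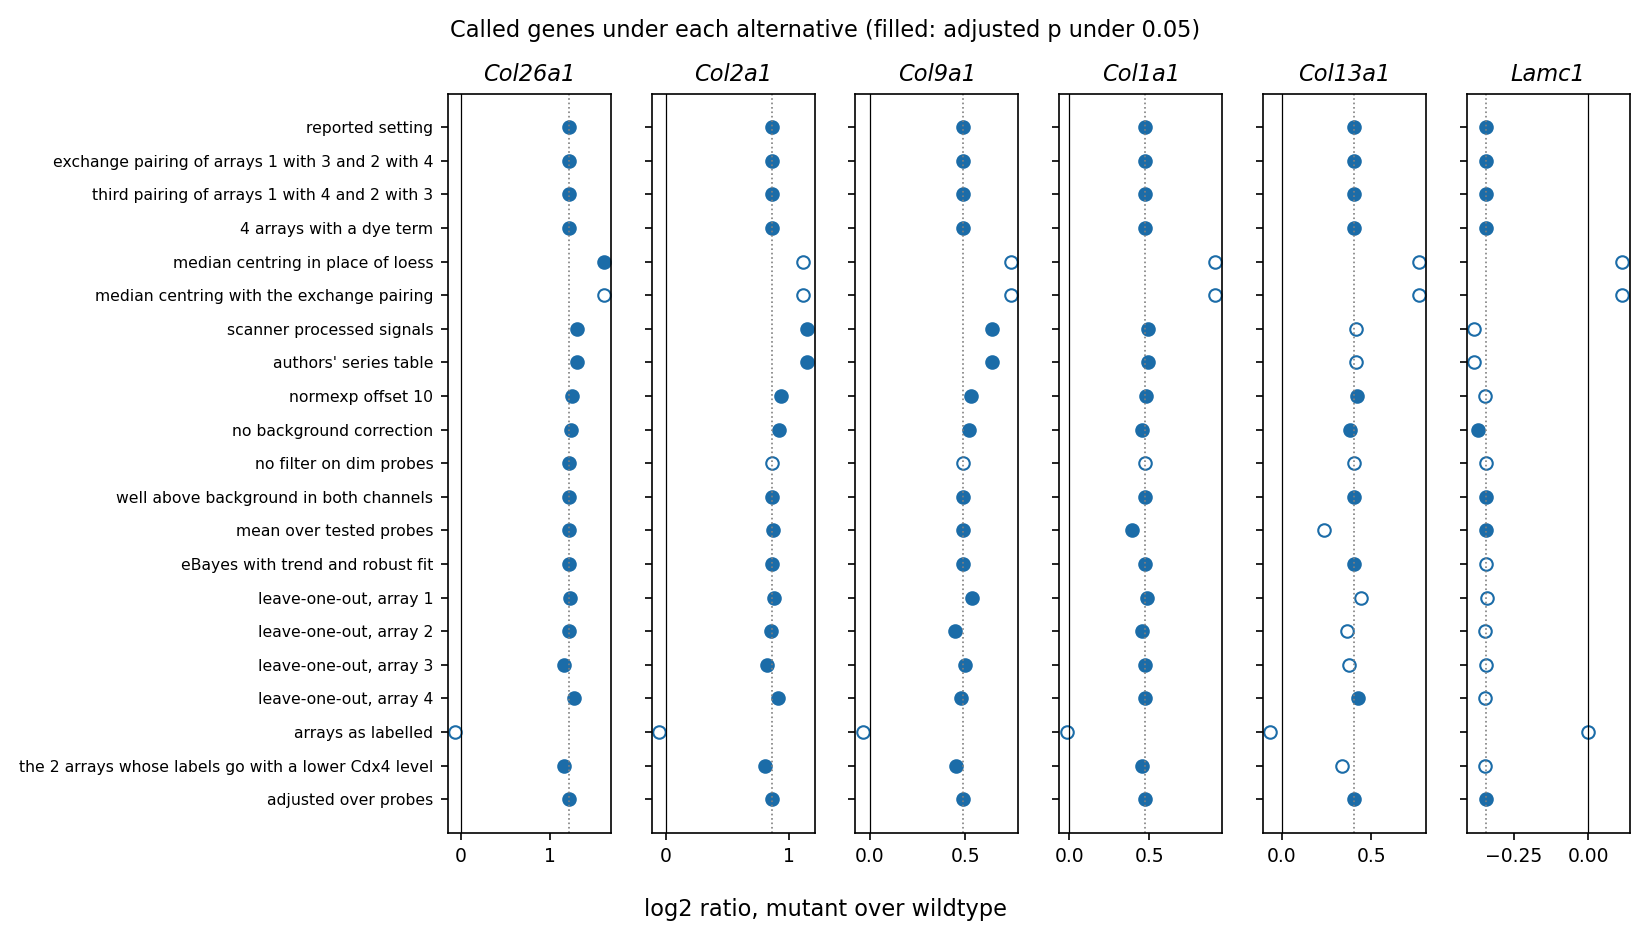
Log2 ratio of mutant over wildtype (x axis) of the 6 called genes under each setting (y axis), filled where the adjusted p was under 0.05, with a dotted line at the reported value. The collagens stay right of 0 except with the arrays as labelled. Lamc1 moves to 0.11 with median centring, where the median of all genes was 0.28.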

How the data were processed

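Scans were read by Agilent Feature Extraction 9.5.3 (submitters' processing notes). Per the file headers, each deposited file holds spot intensity of Cy3 and Cy5 as mean signal with median local background. It also holds a log10 ratio (Cy5 divided by Cy3) and the p-value of that ratio, per the file headers. A further table of the authors holds the same log10 ratio, with its sign turned on the dye swaps. Background was corrected by normexp (offset 50) and the dyes balanced by loess, fitted without control spots, using limma 3.58.1 under R 4.3.3. For log2 intensities and intensity sums, the average intensity of the dyes was also quantile-normalised between arrays (Aquantile in limma). That step leaves the ratios unchanged. Control spots and 103 to 167 outlier spots an array were left out, and no member spot was saturated. Testing required a probe to be well above background in 1 genotype's channel, or in both, on every array, and the brightest such probe stood for its gene. Arrays of 1 labelled replicate were averaged, and limma's lmFit and eBayes were run on these log2 ratios, adjusting p-values by Benjamini-Hochberg across 14843 genes. Spots well above background made up 50.6% to 56.4% in Cy3 and 58.9% to 64.9% in Cy5, and the number of arrays limits the precision.

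Probes were named through a RefSeq accession (23374), a current symbol (6733), an older symbol (2919) or the file's own name (8148). Positions are those of the files, on mm8, and the code was tested on simulated data. The members and lists were chosen with earlier results of these data known. Full values are given for called members, the largest rise and fall of each class, type IV and laminin chains, and members whose probes differ in sign; list genes are named where called. The result of 1 tested member is not reported here. Other pairings, normalisations, filters and left-out arrays were tried, and the closing section gives their effect.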

Additional observations from a re-analysis of the deposited data

Results flagged for a closer look

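Of 39 groups of 4 array values examined, 2 had 1 array farther from the rest than Dixon's 95% critical value allows, where chance gives about 1 in 20. Col26a1 read 1.05 on array 4 against 1.25 to 1.28 on the others, a gap of 0.87 of the range. The median of the basement membrane collagens was 0.056 on array 3 against -0.012 to -0.0031 on the others, a gap of 0.86 of the range.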

How the results depend on the processing

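All calls rest on 4 arrays read as 2 values and on the turning of the arrays. The 5 higher members became 14 with the exchange pairing (arrays 1 with 3 and 2 with 4), 15 with the third pairing (1 with 4 and 2 with 3) and 14 with a dye term, and the single lower member became 5, 7 and 6. Median centring left 1 higher and 0 lower (6 and 0 at an unadjusted p of 0.05 in limma), and median centring with the exchange pairing, chosen after seeing the data, 0 and 0 (2 and 0). Without a filter on dim probes 1 was higher and 0 lower (13 and 2 unadjusted), where 51 members were tested. With the arrays as labelled limma called 0 in either direction (0 and 0 unadjusted), a setting in which the arrays of each labelled replicate cancel. The lower call was lost, leaving 0 in limma, with scanner processed signals and the authors' table (2 unadjusted each), and with an offset of 10, the trend and robust fit and arrays 1 and 4 alone (1 unadjusted each). Leaving out 1 array at a time gave 4 to 5 higher and 0 lower (1 unadjusted each).

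Of all genes, 487 were higher and 659 lower in the reported fit, 3350 and 2903 with the exchange pairing, 4467 and 3755 with the third, 3784 and 3131 with a dye term, 6 and 2 with median centring, 1 and 0 with median centring and the exchange pairing (63 and 4 unadjusted in limma), 10 and 4 without the filter, 2 and 13 as labelled, 636 and 1057 with scanner signals, 448 and 108 with the trend and robust fit, and 246 and 393 with arrays 1 and 4 alone. Leaving out 1 array gave 138 to 381 higher and 116 to 556 lower. As labelled, the arrays of each labelled replicate cancel, and the cause of the other changes was not tested.

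Class medians moved to 0.34 (fibrillar), 0.40 (basement membrane), 0.26 (other) and 0.20 (laminin) with either median centring, and to -0.0090, -0.012, -0.029 and -0.0067 as labelled. Scanner signals and the authors' table gave 0.30 for fibrillar and 0.32 for other collagens. Without the filter the medians were 0.075 for other collagens and -0.059 for laminin chains, and without background correction 0.011 for basement membrane collagens. The basement membrane median was -0.0066 without replicate 2 and 0.026 without replicate 1, and ranged from 0.032 to 0.058 with 1 array left out. Signs reversed for Lamc1 (0.11) and P4ha2 (0.13) with either median centring, and as labelled for Col2a1 (-0.057), Col1a1 (-0.016), Col26a1 (-0.063), Col9a1 (-0.036), Col13a1 (-0.064), Fbln2 (-0.011), Emilin2 (-0.0037), Postn (-0.043), Emid1 (-0.012), Mmp11 (-0.021), Mmp2 (-0.020) and P4ha1 (0.039). With either median centring the median of all genes was 0.28, and Lamc1 and P4ha2 still lay below it. The medians and signs as labelled are what remains after arrays of a replicate cancel, and they give no direction.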
